A study of Mus musculus with 4 samples.

Results

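Bile acids are made from cholesterol in hepatocytes, and this account follows the 10 enzyme genes that carry out the best known steps: Cyp7a1, Cyp8b1, Cyp27a1, Cyp7b1, Cyp39a1, Cyp2c70, Hsd3b7, Akr1d1, Slc27a5 and Baat. The genes were chosen by their known function, with earlier results of these data known, and each array probe was assigned by the transcript accession it carries. All 10 were found, on 11 of the 39429 non-control probes, and they make up 10 of the 17406 genes or other features that were tested. Liver total RNA came from 2 wild type mice and 2 Cyp3a-/- mice, in which the cluster of Cyp3a genes is missing, with 1 single-colour Agilent expression array per liver. The livers came from separate animals in independent experiments, per the study's design text. Strain, sex, age, diet, time of day and the construction of the Cyp3a-/- line are not given in the sources used here, and no treatment is named for either genotype. In whole liver, fewer cells of a type and less RNA per cell cannot be told apart.

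In the classic pathway Cyp7a1 adds a hydroxyl group at the 7α position of cholesterol and sets the rate. Hsd3b7 then oxidises the sterol ring, Cyp8b1 adds the 12α hydroxyl group that makes cholic acid, and Akr1d1 reduces the ring double bond. In the alternative pathway Cyp27a1 first oxidises the side chain. Cyp7b1 and Cyp39a1 each add a 7α hydroxyl group to oxysterols, and their preferred oxysterols need not be the same. Cyp2c70 makes the muricholic acids that are typical of mice, Slc27a5 activates bile acids with coenzyme A, and Baat joins them to taurine or glycine. Cyp3a enzymes themselves hydroxylate bile acids and sterols, and bile acids repress Cyp7a1 and Cyp8b1 through the receptor gene Nr1h4 (FXR) and its target Nr0b2 (SHP).

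The sequence just upstream of the start site is shown for 3 of the enzymes, because nuclear receptors and HNF4 act on genes of bile acid synthesis through such sequence and because Akr1d1 and Cyp8b1 are the members with the largest positive differences below. Cyp2c70, the member with the smallest difference, is shown beside them since its window shares a match with that of Cyp8b1. RefSeq promoter windows (assembly GRCm38.p6, each 300 bases long: 250 before the start and 50 from it on) were at hand for 5 of the 10 members, namely Cyp8b1, Cyp27a1, Cyp2c70, Hsd3b7 and Akr1d1. Capitals mark matches, on either strand, to AGGTCA (a nuclear receptor half-site, written TGACCT when it lies on the other strand), to CAAAGTCCA (a core of the kind HNF4 binds) and to TATAAA (the TATA box, TTTATA on the other strand). Only a stretch before the start is printed, the last 100 bases for Cyp8b1 and Cyp2c70 and 250 for Akr1d1. These stretches are on the minus strand for Cyp8b1 (chr9:121916306-121916405) and Cyp2c70 (chr19:40187287-40187386) and on the plus strand for Akr1d1 (chr6:37529923-37530172), and each is written 5′ to 3′ and ends at the last base before the start.
Cyp8b1: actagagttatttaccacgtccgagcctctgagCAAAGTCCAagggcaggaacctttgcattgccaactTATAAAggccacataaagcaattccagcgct
Cyp2c70: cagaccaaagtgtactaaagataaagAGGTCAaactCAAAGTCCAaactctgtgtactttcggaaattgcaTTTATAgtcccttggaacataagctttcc
Akr1d1: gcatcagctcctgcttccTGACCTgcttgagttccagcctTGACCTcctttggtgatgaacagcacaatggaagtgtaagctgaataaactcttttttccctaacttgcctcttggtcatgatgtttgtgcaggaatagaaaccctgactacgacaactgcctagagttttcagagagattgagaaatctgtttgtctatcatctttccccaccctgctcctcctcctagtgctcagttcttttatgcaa

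The letters CAAAGTCCA stood in 0.475% of the 32851 promoter windows of that length, 156 in all, and the windows of Cyp8b1 (-67 to -59 from the start) and Cyp2c70 (-64 to -56) are among them. AGGTCA stood in 16.3% of the windows, and 1.81% held it at 2 or more places, as Akr1d1 does at -232 to -227 and -210 to -205, both on the minus strand. In Cyp2c70 it stood at -74 to -69. TATAAA, found in 13.6% of windows, lay at -31 to -26 in Cyp8b1 and, on the opposite strand, at -29 to -24 in Cyp2c70. Of the other letters searched on both strands, CCAAT (37.4% of windows) stood at -71 to -67 and -34 to -30 in Cyp27a1, whereas GTTAAT, an HNF1 half-site (7.10%), and CAAGGTCA, an LRH-1 type site that holds AGGTCA (1.56%), had no match in the 5 windows. None of the letters searched was found in the window of Hsd3b7. These are matches of letters, and no binding was measured.

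The labels were checked on the deleted cluster. Cyp3a11, on chromosome 5, stood at 7.94 and 8.09 in the wild type livers and at -6.98 and -6.93 in the Cyp3a-/- livers (log2 signal minus that array's 75th percentile, the unit of every level below). Its probe did not clear the background in the Cyp3a-/- livers, and it was at least 7204-fold lower (limma adjusted p = 1.4e-05). None of the 10 enzyme genes lies on chromosome 5. The share of probes well above background ran from 54.4% to 56.4% over the arrays, 0 spots were saturated, and arrays correlated at 0.992 within wild type, 0.988 within Cyp3a-/- and 0.977 to 0.987 across genotypes. The wild type arrays shared slide 1, and the Cyp3a-/- arrays lay on slides 2 and 3, so slide and genotype cannot be told apart in any value below. The precision of each value is limited by the number of arrays, 2 per genotype. The hepatocyte markers were bright on all arrays, with 10 of 10 measured, 0 past the threshold and a median log2 fold change of 0.11.

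No enzyme of the 10 passed the test between genotypes, which was an adjusted p under 0.05 over all features in limma (0 rose and 0 fell, against 0.276% of all features). All 10 were well above background on all 4 arrays. The largest differences were those of Akr1d1, 3.37-fold higher in Cyp3a-/- liver, and Cyp39a1, 2.40-fold lower, followed by Cyp8b1 (2.00-fold higher) and Cyp7a1 (1.61-fold higher). A fitted change of at least 2-fold was reached by Akr1d1 and Cyp39a1, and by 3.68% of all features. The 4 genes had an unadjusted p under 0.05: 3 higher, beside 4.60% of all features, and 1 lower, beside 5.42%. Without overlap between the arrays of the genotypes were 5 of the 10, these 4 and Baat, where 42.8% of all features had none; 4 of them were higher (22.5% of all features) and 1 lower (20.2%). The median log2 fold change of the 10 was 0.19, beside 0.01 over all features (0.08 beside -0.02 with quantile normalization). Of the 10, 7 were above 0 and 3 below. Their median absolute log2 fold change was 0.31, beside 0.20. For the other 6 enzymes, Hsd3b7, Cyp27a1, Cyp7b1, Cyp2c70, Slc27a5 and Baat, the 95% interval of the difference lay within 2-fold in either direction.

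**Figure D1:**
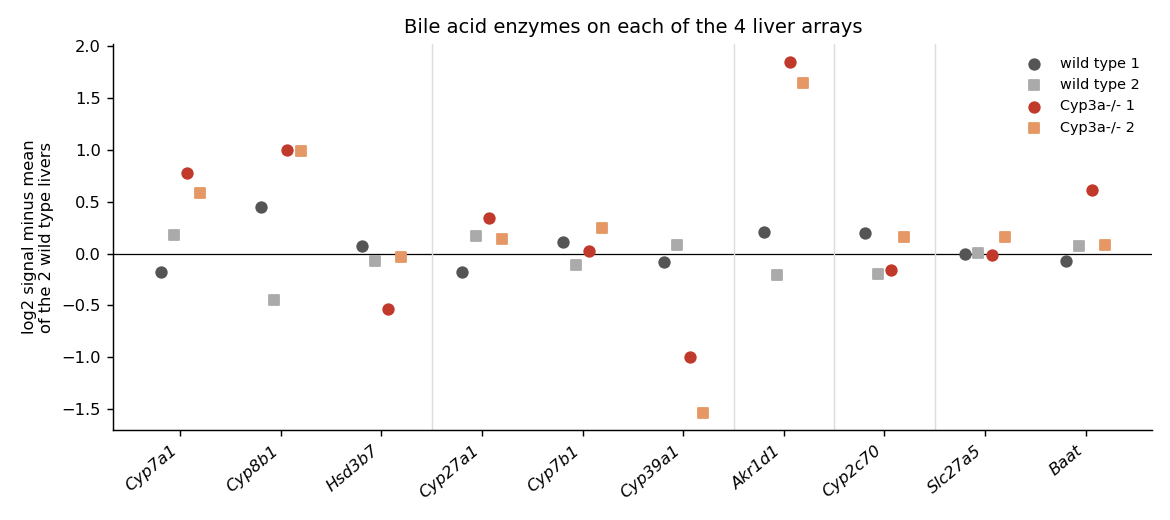
Level of each enzyme on each array, as log2 signal minus the mean of the wild type livers (vertical axis), with 1 point per liver. Grey points are wild type and red and orange points Cyp3a-/-; circles are replicate 1 and squares replicate 2. Akr1d1 and Cyp39a1 show the widest gaps between the genotypes, and the wild type points of Cyp8b1 lie 0.90 apart.

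Cyp7a1, the rate-limiting 7α-hydroxylase of the classic pathway on chromosome 4, stood at -0.82 and -0.46 in the wild type livers and at 0.14 and -0.05 in the Cyp3a-/- livers. Both Cyp3a-/- livers were higher than both wild type livers, and the gap from the upper wild type to the lower Cyp3a-/- liver was about as wide as the spread of the wild type pair. The log2 fold change was 0.68 ± 0.21 (SE, 95% interval 0.16 to 1.21; limma adjusted p = 0.389). In processed intensity the same probe read 176 and 256 in wild type and 346 and 297 in Cyp3a-/- liver. This was below or near the arrays' 75th percentile, which lay between 308 and 352.

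Cyp8b1, the 12α-hydroxylase on chromosome 9 that sets the share of cholic acid, stood at 1.65 and 0.74 in wild type liver and at 2.20 and 2.19 in Cyp3a-/- liver. The Cyp3a-/- livers were nearly equal, 0.01 apart, whereas the wild type livers were 0.90 apart, a spread wider than that of 97.1% of all features. The log2 fold change was 1.00 ± 0.32 (95% interval 0.20 to 1.80; limma adjusted p = 0.406). Its size rested on which wild type liver was used: it was 1.45 without wild type 1 and 0.55 without wild type 2. It passed the threshold under 1 of the 14 other settings, median scaling (1.03, limma adjusted p = 0.0366). That setting gave every enzyme the same standard error, so its p-values do not weigh a gene's own spread. Hsd3b7, the ring oxidoreductase on chromosome 7 that acts on 7α-hydroxylated sterols of both pathways, stood at 7.43 and 7.29 in wild type and at 6.83 and 7.33 in Cyp3a-/- liver. Cyp3a-/- 1 was the lowest of the 4, and Cyp3a-/- 2 lay between the wild type livers, so the genotypes overlapped. The log2 fold change was -0.28 ± 0.23 (95% interval -0.86 to 0.30; limma adjusted p = 0.712).

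Of the alternative pathway, 0 of the 3 enzymes passed the test. Cyp27a1, the mitochondrial hydroxylase of the sterol side chain on chromosome 1, stood at 2.48 and 2.82 in wild type and at 2.99 and 2.80 in Cyp3a-/- liver, with overlapping arrays and a log2 fold change of 0.24 ± 0.21 (95% interval -0.28 to 0.76; limma adjusted p = 0.724). Cyp7b1, the oxysterol 7α-hydroxylase on chromosome 3, which is known to be higher in male than in female mouse liver, stood at 6.13 and 5.91 in wild type and at 6.04 and 6.27 in Cyp3a-/- liver. These arrays overlapped as well, with a log2 fold change of 0.13 ± 0.19 (95% interval -0.35 to 0.62; limma adjusted p = 0.844), and the sign turned with quantile normalization (-0.023).

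Cyp39a1, the other oxysterol 7α-hydroxylase, on chromosome 17, was the one member lower on both Cyp3a-/- arrays than on both wild type arrays. It stood at 2.11 and 2.27 in wild type and at 1.20 and 0.65 in Cyp3a-/- liver. The wild type livers were 0.16 apart and the Cyp3a-/- livers 0.54, and the gap between the genotypes was wider than either. In processed intensity the probe read 1347 and 1698 in wild type and 719 and 485 in Cyp3a-/- liver. The log2 fold change was -1.26 ± 0.24 (95% interval -1.86 to -0.66; unadjusted p = 0.00243 and adjusted p = 0.215 in limma), and it was -1.54 without Cyp3a-/- 1 and -0.99 without Cyp3a-/- 2. Under the 14 other settings it stayed between -1.54 and -0.99 and passed the threshold in 1 of them, median scaling (-1.23, limma adjusted p = 0.0054). The p-value of that setting does not weigh the gene's own spread.

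Akr1d1, the Δ4-3-oxosteroid 5β-reductase on chromosome 6, gave the largest difference of the 10. This enzyme acts on bile acid intermediates of both pathways and also on steroid hormones. It stood at -0.47 and -0.88 in wild type and at 1.18 and 0.98 in Cyp3a-/- liver, so both Cyp3a-/- livers lay above both wild type livers by several times the spread of either pair. In processed intensity the probe read 225 and 191 in wild type and 711 and 606 in Cyp3a-/- liver. The log2 fold change was 1.75 ± 0.22 (95% interval 1.20 to 2.30; unadjusted p = 3.1e-04 and adjusted p = 0.0805 in limma), the 144th largest in absolute size among the 17406 features. Median scaling, among the 14 other settings, called 388 features higher and 271 lower, and its p-values do not weigh a gene's own spread. Under the 14 other settings the log2 fold change of Akr1d1 stayed between 1.43 and 1.96. It passed the threshold with normexp background correction (1.43, adjusted p = 0.0430), with median scaling (1.78, adjusted p = 3.1e-06) and without Cyp3a-/- 2 (1.85, adjusted p = 0.0372), a setting that called 497 features higher and 67 lower in place of 31 and 17, and over all settings the adjusted p ran up to 0.464.

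**Figure D2:**
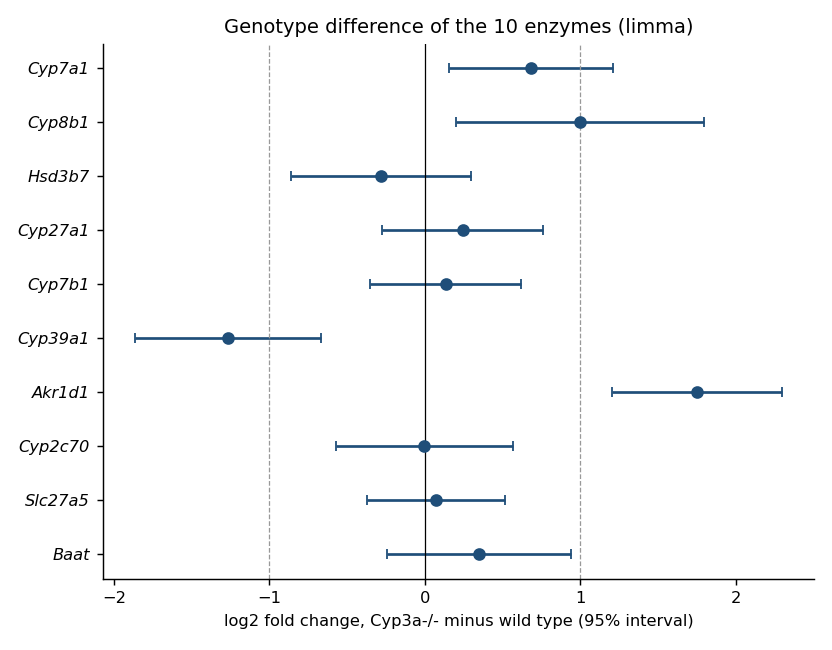
Log2 fold change of each enzyme (horizontal axis, Cyp3a-/- minus wild type) from the limma fit; bars are 95% intervals, n = 2 livers per genotype, and dashed lines mark a 2-fold difference in either direction. The interval of Akr1d1 (1.20 to 2.30) lies wholly beyond the upper dashed line, and that of Cyp39a1 (-1.86 to -0.66) crosses the lower one.

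Cyp2c70, the P450 on chromosome 19 that makes muricholic acids from chenodeoxycholic acid, gave the smallest difference of the 10. It stood at 7.30 and 6.90 in wild type and at 6.94 and 7.26 in Cyp3a-/- liver, so each genotype held 1 higher and 1 lower liver. The log2 fold change was -0.0023 ± 0.23 (95% interval -0.57 to 0.57; limma adjusted p = 0.999). Its sign was unsettled: it was 0.028 with median scaling, 0.19 without wild type 1 and 0.16 without Cyp3a-/- 1. Cyp2c70 belongs to the large Cyp2c family, whose close copies can share a probe's target.

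The conjugating enzymes gave differences that did not pass the test and were small beside those of Akr1d1 and Cyp39a1. Slc27a5, the bile acid-CoA ligase on chromosome 7, stood at 8.21 and 8.22 in wild type and at 8.20 and 8.38 in Cyp3a-/- liver, a log2 fold change of 0.07 ± 0.18 (95% interval -0.37 to 0.52; limma adjusted p = 0.910) that turned to -0.090 with quantile normalization. The wild type livers differed by only 0.01. It was the one member with a second probe, and that probe gave 6.97 and 7.07 in wild type and 6.99 and 7.25 in Cyp3a-/- liver, a log2 fold change of 0.10 ± 0.19 (limma adjusted p = 0.882 over all kept probes). Both probes had overlapping arrays, with Cyp3a-/- 2 the highest of the 4. Baat, the amino acid transferase on chromosome 4, stood at 1.94 and 2.08 in wild type and at 2.63 and 2.10 in Cyp3a-/- liver. The genotypes did not overlap, but Cyp3a-/- 2 was 0.01 above wild type 2, and the log2 fold change was 0.35 ± 0.24 (95% interval -0.24 to 0.94; limma adjusted p = 0.664).

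**Figure D3:**
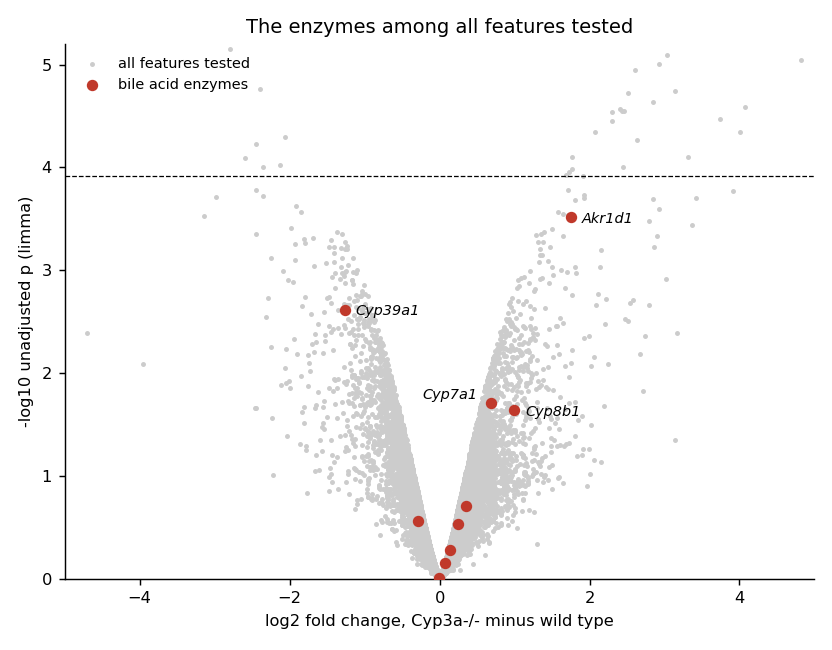
Each tested feature by log2 fold change (horizontal axis, Cyp3a-/- minus wild type) and -log10 of the unadjusted limma p (vertical axis); grey points are all features, red points the 10 enzymes, and names are given for the 4 with an unadjusted p under 0.05. The dashed line marks the largest unadjusted p that passed after adjustment. Akr1d1 is the enzyme nearest to that line, and 17 features lie outside the axes.

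The members did not vary as one block across the 4 livers. Cyp3a-/- 1 was the highest array for 5 of the 10, wild type 1 for 2, Cyp3a-/- 2 for 2 and wild type 2 for 1. The lowest was wild type 2 for 4, wild type 1 for 3, Cyp3a-/- 1 for 2 and Cyp3a-/- 2 for 1. The median spread between the wild type livers was 0.28 for the enzymes and 0.20 for all features, and between the Cyp3a-/- livers it was 0.21 and 0.25. Likeness of pattern was measured as the root mean square distance between profiles over the 4 arrays, each profile centred on its own mean. It is a description of 4 livers in which slide and genotype cannot be told apart. Akr1d1 and Cyp8b1 were each other's nearest enzyme, at a distance of 0.42 on the log2 scale. Cyp7b1 and Slc27a5 were each other's nearest at 0.0891, and Cyp27a1 and Baat at 0.149. Cyp7a1 lay nearest to Cyp27a1 (0.22), Cyp2c70 to Cyp7b1 (0.0973) and Hsd3b7 to Cyp2c70 (0.178). Cyp39a1 stood farthest from the rest, with Hsd3b7 as its nearest fellow at 0.624.

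Among all tested genes with a symbol, the 3 nearest to Akr1d1 were Trp53inp1 (distance 0.107), a stress gene that p53 induces, Gm4956 (0.131), a predicted gene, and Kcnj15 (0.167), a potassium channel gene. Trp53inp1 stood at 1.47 and 1.32 in wild type and at 3.14 and 3.09 in Cyp3a-/- liver. Kcnj15 stood at -4.79 and -5.65 in wild type, below the lowest signal called well above background on those arrays (-4.65 and -4.93). It entered the test only through the Cyp3a-/- arrays, so its distance rests on levels below background. The 3 nearest to Cyp39a1 were the fatty acid transporter gene Cd36 (0.0902), the calpain gene Capn3 (0.0953) and the follistatin gene Fst (0.0959), an inhibitor of activins. Cd36 stood at -0.38 and -0.19 in wild type and at -1.49 and -1.89 in Cyp3a-/- liver.

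Lists of related genes follow, and their counts are to be set against the shares of all features: 0.178% rose and 0.0977% fell, while 4.60% were higher and 5.42% lower at an unadjusted p under 0.05. The remaining steps of synthesis were described with a list of side chain shortening and other synthesis genes, of which 13 of 15 were measured. None passed the threshold: 0 rose and 0 fell. The median log2 fold change was 0.01, and 1 gene had an unadjusted p under 0.05. The hydroxysteroid dehydrogenase gene Akr1c14, of the same reductase superfamily as Akr1d1, stood at 0.75 ± 0.23, and Akr1c6 at 0.39 ± 0.17 (log2 fold change, SE). In the list of bile acid sulfation 4 of 10 genes were measured and 5 were too dim on the array. Of those 4, 1 rose and 0 fell, 2 had an unadjusted p under 0.05, and the median was 0.67. The gene that rose was Sult2a7, of the Sult2a hydroxysteroid sulfotransferases, at -1.18 and -1.23 in wild type and 4.05 and 3.18 in Cyp3a-/- liver, a log2 fold change of 4.82 ± 0.31 (limma adjusted p = 0.0088). The Sult2a genes are close copies, so this signal may come from more than one of them. Sult2a8, the other measured Sult2a gene, was far brighter in wild type liver, at 6.62 and 6.52, and did not pass the threshold. Its log2 fold change was 0.29 ± 0.19 (limma adjusted p = 0.661). Papss2, which makes the sulfate donor, stood at 1.06 ± 0.24 (adjusted p = 0.274).

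Of the bile acid and sterol transport genes 14 of 15 were measured, and 1 rose, 0 fell and 3 had an unadjusted p under 0.05 (median -0.02). The basolateral uptake carrier Slco1a4 rose from -0.47 and -0.76 to 2.31 and 2.74, by 3.15 ± 0.23 on the log2 scale (limma adjusted p = 0.0143). The basolateral efflux pumps Abcc3 and Abcc4 stood at 0.63 ± 0.21 and -0.55 ± 0.18. Sult2a7 and Slco1a4 both missed the threshold without wild type 1, without wild type 2 and without a filter on dim probes. Without that filter the limma adjusted p was 0.0724 for Sult2a7 and 0.117 for Slco1a4. Log2 fold changes stayed at 2.93 or more for Slco1a4 and 4.39 or more for Sult2a7 whichever array was left out.

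Genes that control bile acid synthesis were measured for 15 of 15, with 0 rises, 0 falls and a median of -0.09. The members with an unadjusted p under 0.05 were 3, all of them lower. Onecut1 (HNF6), a hepatocyte transcription factor that can activate Cyp7a1, stood at -1.01 and -0.20 in wild type and at -2.20 and -2.60 in Cyp3a-/- liver (log2 fold change -1.79 ± 0.32, limma adjusted p = 0.198). Nr0b2, the repressor of Cyp7a1 and Cyp8b1, stood at 1.27 and 1.88 in wild type and at 0.56 and 0.75 in Cyp3a-/- liver (-0.92 ± 0.26, limma adjusted p = 0.344). The xenobiotic receptor Nr1i3 (CAR) stood at -0.59 ± 0.20 (limma adjusted p = 0.444). Over the whole list 5 of 15 were lower and 0 higher without overlap between the arrays, where 20.2% and 22.5% of all features were.

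**Figure D4:**
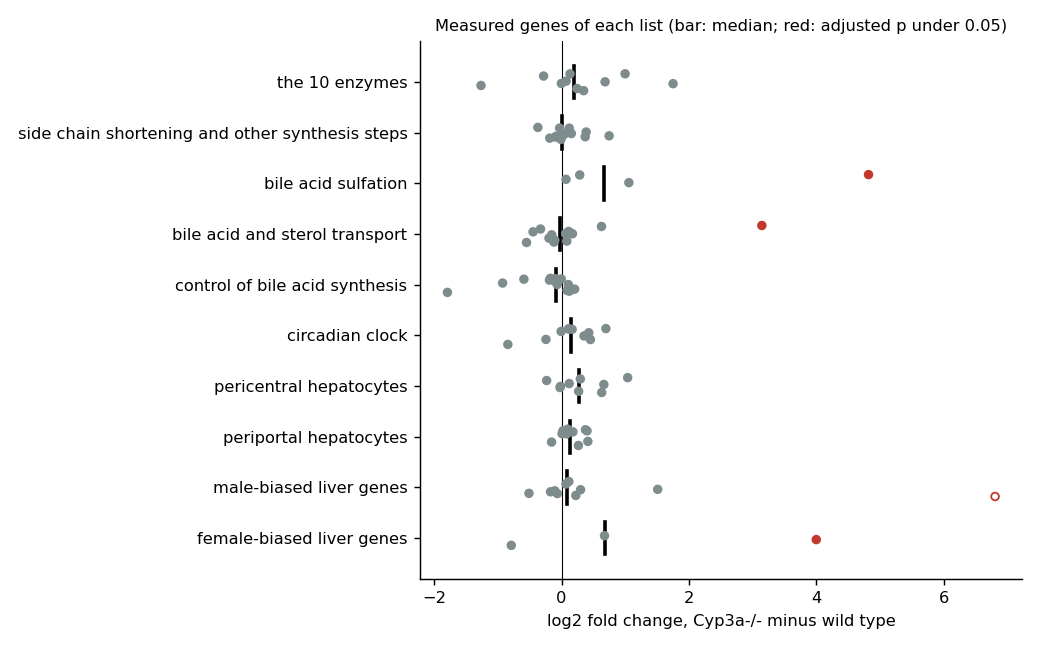
Log2 fold change (horizontal axis, Cyp3a-/- minus wild type) of each measured gene of the 10 enzymes and the 9 lists of related genes, 1 point per gene, spread vertically for legibility; black bars are medians and red points have an adjusted p under 0.05. The open point is Moxd1, not well above background in wild type liver, whose plotted value depends on a level below background. Of the red points none belongs to the 10 enzymes, whose extremes are Cyp39a1 (-1.26) and Akr1d1 (1.75).

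Several enzymes of the set vary with the clock, the liver zone or sex, and lists of such genes are given beside them. Of the circadian clock genes 10 of 14 were measured, with 0 rises, 0 falls and a median of 0.14. Nr1d1 stood at -0.84 ± 0.30, the only one with an unadjusted p under 0.05, and Per1 at 0.70 ± 0.35. Dbp, whose transcript swings widely over the day, stood at 1.72 and 0.70 in wild type and at -0.10 and 2.50 in Cyp3a-/- liver, so the Cyp3a-/- livers held both the lowest and the highest value. The part of the clock in the differences of Cyp7a1 and Cyp8b1, which are known to vary over the day, was not tested. Of the pericentral hepatocyte genes 9 of 10 were measured with 0 rises and 0 falls (median 0.27), and the 2 with an unadjusted p under 0.05 were Oat at 1.04 ± 0.29 and Lect2 at 0.66 ± 0.19. Of the periportal genes 10 of 10 were measured with 0 rises, 0 falls and 0 at an unadjusted p under 0.05 (median 0.14), with Arg1 at 0.41 ± 0.22 and Pck1 at 0.40 ± 0.23.

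In the male-biased list, 10 of 10 were measured, 1 rose and 0 fell, with 3 at an unadjusted p under 0.05 and a median of 0.09. The one that rose was Moxd1, whose probe did not clear the background in wild type liver, at least 49.8-fold higher in Cyp3a-/- liver (limma adjusted p = 0.0168). Susd4 stood at 1.51 ± 0.24 and Cyp2u1 at -0.51 ± 0.20. In the female-biased list 3 of 9 were measured and 6 were too dim. Of these 3, 1 rose and 0 fell: Cyp2b9 (limma adjusted p = 0.0234), which cleared the background on only 1 wild type array and is given no fold. With normexp it stood at 1.97 and missed the threshold (limma adjusted p = 0.0729). In the same list Cyp2a4 stood at 0.67 ± 0.34 and Acot3 at -0.79 ± 0.82 (list median 0.67). Moxd1 and Cyp2b9 entered the test only through the Cyp3a-/- arrays, where they are high, so their rises are no support for either list. Both missed the threshold without wild type 1, without wild type 2 and without a filter on dim probes (limma adjusted p = 0.119 and 0.135). Over the 9 lists together, which hold 106 genes, 87 were measured, and 4 rose, Moxd1 and Cyp2b9 among them, and 0 fell. At an unadjusted p under 0.05 there were 10 higher and 6 lower.

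Markers of other cells of the liver were summed per array, as signal relative to the 75th percentile. Red cell markers (4 of 5 measured) summed to 91.7 and 107 in wild type and 46.6 and 75.1 in Cyp3a-/- liver. Hba-a1 stood at -1.07 ± 0.31 and Hbb-bt at -0.81 ± 0.24, and of the 4 markers 3 were below 0 and 1 above (median -0.55). Macrophage markers (7 of 7) summed to 44.0 and 45.4 in wild type and to 34.2 and 39.2 in Cyp3a-/- liver, with Marco at -1.47 ± 0.30. Of the 7, 5 were below 0 and 2 above (median -0.11), and only Marco had an unadjusted p under 0.05. The red cell and macrophage sums were lower in both Cyp3a-/- livers than in both wild type livers, and so was the stellate cell sum. Of single features, 20.2% were lower without overlap, and no such share was computed for sums. The stellate cell sum was 42.5 and 38.7 in wild type and 35.5 and 38.4 in Cyp3a-/- liver, a narrow gap between 38.7 and 38.4. All 6 measured markers were below 0 in log2 fold change, with 0 at an unadjusted p under 0.05. Lymphocyte markers (5 of 6, Cd79a too dim) summed to between 3.11 and 4.08 in wild type and between 3.02 and 3.89 in Cyp3a-/- liver. Among them Ms4a1 stood at -0.92 ± 0.24, while of the 5 markers 3 were below 0 and 2 above (median -0.08). The sums of cholangiocyte (5 of 7), sinusoidal (6 of 6), neutrophil (3 of 5), pancreas (1 of 5) and small intestine (2 of 5) markers came with 0 markers at an unadjusted p under 0.05, and Epcam, Cela2a and Vil1 were among those too dim. No marker of any of the 10 cell types passed the threshold. The part of these cells in the differences of Akr1d1 and Cyp39a1 was not tested.

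**Figure D5:**
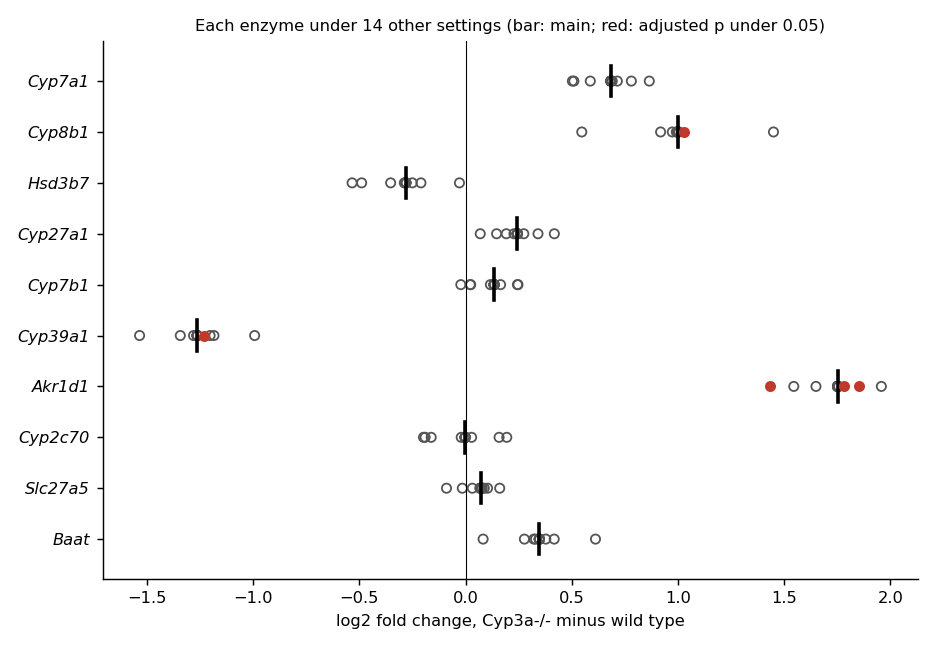
Log2 fold change of each enzyme (horizontal axis, Cyp3a-/- minus wild type) under 14 other settings, 1 point per setting; the black bar is the value reported above and red points have a limma adjusted p under 0.05. Points of Akr1d1 lie between 1.43 and 1.96 and those of Cyp39a1 between -1.54 and -0.99, whereas those of Cyp2c70, Slc27a5 and Cyp7b1 fall on both sides of 0.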

How the data were processed

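The authors deposited scanner output of 4 arrays (Agilent Feature Extraction 11.5.1.1, a version named in the submitters' processing notes). Per the file headers, its processed intensity is background-subtracted without scaling between arrays. They also deposited a log2 table without stating scale, centring or direction. Set against the scanner values it behaved as log2 intensity scaled to the 75th percentile and then centred per probe on the median (39417 of 39417 medians at 0, tolerance 0.002; column medians 0.06, -0.07, -0.02 and 0.02), and it served as an alternative. The number of sample columns not used is 0.

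Control spots and 113 to 148 outlier spots per array were left out. Log2 processed intensity was averaged over the spots of one probe, and the array's 75th percentile over probes was then subtracted. Probes well above background on both arrays of a genotype were kept (21508), named by accession through RefSeq (GRCm38.p6; 28025 probes with 1 symbol, 11404 without), and each gene took its brightest kept probe. The genotype comparison used limma 3.58.1 (R 4.3.3, 2-sided, Benjamini-Hochberg over 17406 features, prior degrees of freedom 3.54 beside 2 residual), after a test on simulated data. P-values weigh the difference against the spread between these livers within a genotype, moderated by the spread over all features. That spread also holds differences between arrays and slides. For a gene below background in a genotype, "at least" folds divide the brighter mean by a floor, which on each array is the lowest signal called well above background, or the probe's signal if that is higher.

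The members, lists and tests were chosen with earlier results of these data known. Named genes were all members; list genes past the adjusted or unadjusted threshold and, among those above background on all arrays, the 2 with the largest changes; markers at an unadjusted p under 0.05, of which some are not reported here; and nearest profiles. Dbp, Sult2a8 and the marker genes named as too dim were added after their values were seen. Alternatives were normexp (offset 50), quantile and median scaling, dim-probe filters, the authors' table, the mean over probes, replicate and slide blocks, and leaving out each array.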

Additional observations from a re-analysis of the deposited data

How the results depend on the processing

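The count of enzymes past the threshold, 0, was 1 with normexp (Akr1d1) and 3 with median scaling (Akr1d1 1.78, Cyp39a1 -1.23 and Cyp8b1 1.03), and 0 to 1 when each array was left out. The same counts held over their 11 probes: 1, 3 and 0 to 1. Median scaling gave infinite prior degrees of freedom and called 388 features higher and 271 lower, where the reported fit called 31 and 17. Leaving out an array gave 1 higher and 7 lower (without wild type 1), 1 and 6 (wild type 2), 150 and 52 (Cyp3a-/- 1) and 497 and 67 (Cyp3a-/- 2), so the share of features called moves with the array left out. The 4 calls among related genes became 8 with median scaling, 0 without a filter on dim probes, 2 when all 4 arrays had to be above background, and 0 to 5 when each array was left out. Signs turned for Cyp7b1 (-0.023) and Slc27a5 (-0.090) with quantile normalization, and for Cyp2c70 with median scaling (0.028). With each array left out, Cyp2c70 ran from -0.20 to 0.19 and Slc27a5 from -0.016 to 0.16. The cause was not tested.

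The labels do not say whether livers with the same replicate number shared an experiment. The correlation between the pairs' deviations was r = -0.10 over all features and r = -0.40 over the enzymes. It rests on a single difference per genotype, so it cannot decide whether the replicates are paired. With the replicate number as a block 58 features were called, 0 of them among the enzymes and 4 among related genes, and with the pairing crossed, added after seeing the data, 56. With slide as a random block, 33 features were called and Akr1d1 had a limma adjusted p of 0.218. The correlation of that block, 0.355, came from the ratio of the spreads of the wild type pair, on 1 slide, and the Cyp3a-/- pair, and assumes that the genotypes vary alike. With an array left out, the lone liver is assumed to vary like the other genotype. Differences of dim genes are limited by their signal over background.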
